A study of Mus musculus with 4 samples.

Results

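Among 10359 cells from ligated mouse carotid arteries, 671 carried at least 1 transcript of *Cdkn2a*, the gene of the senescence marker p16. They were chosen by their *Cdkn2a* value, as every cell of the 2 ligation libraries in which it was above 0, so the *Cdkn2a* readout is given only as a description. Of these cells, 280 came from 4967 control cells (5.64%) and 391 from 5392 *Trf2T188A* cells (7.25%), and the whole series held 12790 cells in 4 libraries. The control mice were wild-type littermates of SM22a-TRF2T188A mice, which express a mutant of the telomere-binding protein TRF2 from the minimal Sm22a promoter, a promoter of smooth muscle cells. All were C57Bl/6 males aged 4 to 5 months, the left common carotid had been tied in both genotypes, and the artery was taken after 28 days. The adventitia and the segments that had not remodelled were removed before the wall was digested with enzymes. Single cells were read with 10x Chromium 3′ v3 libraries, 1 per genotype, and the number of mice behind each library was not given in the sources used here. Genotype and library therefore cannot be told apart, no comparison between them has a replicate check, and cells are not replicates.

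p16 binds CDK4 and CDK6, the kinases that cyclin D activates to inactivate RB and open the way to DNA synthesis, and p16 is widely used as a marker of senescent cells. Vascular smooth muscle cells (VSMCs) in the uninjured wall carry a contractile apparatus of smooth muscle actin, smooth muscle myosin heavy chain and calponin. After injury they can lower it, divide and lay down matrix, and the matrix-rich states are called de-differentiated or fibromyocyte states.

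*Cdkn2a* lies on the minus strand of chromosome 4 (GRCm38, chr4:89274471-89294653, ENSMUSG00000044303.6), between the long non-coding RNA gene *Gm12606* and *Cdkn2b*, whose product p15 is also a CDK4 and CDK6 inhibitor (chr4:89306299-89311039). It has 2 transcripts that begin in different first exons and then share their downstream sequence in different reading frames. One gives p16 (first exon chr4:89281986-89282192, 207 bases) and the other gives Arf, a protein that stabilises p53 (first exon chr4:89294334-89294653, 320 bases). The junctions of the first exons with the shared second exon (chr4:89276645-89276985) are printed here with 30 bases on each side, because only the first-exon side, marked by capitals, tells the transcripts apart there.
p16 transcript Cdkn2a-201: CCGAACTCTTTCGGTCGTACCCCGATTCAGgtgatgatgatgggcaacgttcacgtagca
Arf transcript Cdkn2a-202: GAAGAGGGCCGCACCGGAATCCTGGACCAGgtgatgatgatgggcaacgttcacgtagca
The bases after the junction are the same in both, and 575 bases outside the first exons are common to the p16 transcript (67.5% of its length) and the Arf transcript (64.3%). The libraries read the 3′ end, so a *Cdkn2a* transcript counted here can be of either kind.

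The promoters of the p16, Arf and *Cdkn2b* transcripts (RefSeq starts, GRCm38.p6, 250 bases before to 50 after the start, minus strand) are shown because *Cdkn2b* was higher in the same cells. Capitals mark GGGCGG, the GC box to which SP1 family factors can bind, which was searched on both strands.
p16 promoter, chr4:89282143-89282442: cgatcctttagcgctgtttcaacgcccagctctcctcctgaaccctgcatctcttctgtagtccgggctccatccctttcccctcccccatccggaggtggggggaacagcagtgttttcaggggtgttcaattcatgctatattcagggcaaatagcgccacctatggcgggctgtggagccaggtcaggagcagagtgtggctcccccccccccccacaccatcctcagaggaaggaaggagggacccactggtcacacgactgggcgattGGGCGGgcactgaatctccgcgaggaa
Arf promoter, chr4:89294570-89294869: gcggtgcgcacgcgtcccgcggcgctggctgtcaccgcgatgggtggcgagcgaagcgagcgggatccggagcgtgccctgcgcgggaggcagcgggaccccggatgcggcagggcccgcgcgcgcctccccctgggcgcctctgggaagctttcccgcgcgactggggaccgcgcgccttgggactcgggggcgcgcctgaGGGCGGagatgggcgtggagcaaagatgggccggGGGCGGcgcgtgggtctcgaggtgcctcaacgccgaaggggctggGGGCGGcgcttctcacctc
Cdkn2b promoter, chr4:89310983-89311282: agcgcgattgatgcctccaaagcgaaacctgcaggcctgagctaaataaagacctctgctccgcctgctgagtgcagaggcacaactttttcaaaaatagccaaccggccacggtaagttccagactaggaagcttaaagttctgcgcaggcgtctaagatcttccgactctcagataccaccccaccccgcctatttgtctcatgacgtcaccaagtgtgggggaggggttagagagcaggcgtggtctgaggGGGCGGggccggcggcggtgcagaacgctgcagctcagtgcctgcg
The p16 promoter held 1 such box, the Arf promoter 3 and the *Cdkn2b* promoter 1, against at least 1 box in 35.7% of 32851 mouse promoters of the same length. G and C made up 60.3% of the bases of the p16 promoter, 77% of the Arf promoter and 57.7% of the *Cdkn2b* promoter, against a median of 52.7% over all promoters. A match to these letters is a description of the sequence and not a binding site.

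The control library had a median of 8631 unique molecular identifiers (UMIs, 1 per captured transcript) and 2900 genes per cell, and the *Trf2T188A* library had 11153 UMIs and 3360 genes. The deeper library gives each cell more chances to show a rare transcript. The libraries shared 10 cell barcodes, 1 of them with *Cdkn2a*. *Terf2*, the gene of TRF2, was read at 0.179 UMIs per 10000 in control and 0.168 in *Trf2T188A* cells, so a 3′ count did not check the transgene label. The level used throughout is the number of UMIs of a gene per 10000 UMIs of the cell, averaged over cells. Intervals in brackets are 95% intervals that cover counting error only and not the spread between cells or mice.

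*Cdkn2a* was sparse in both libraries. The control cells held 451 *Cdkn2a* UMIs (0.0945 per 10000, 0.0860 to 0.104) and the *Trf2T188A* cells held 765 (0.113, 0.106 to 0.122). These intervals of counting error did not overlap, but the *Trf2T188A* library was deeper. Most cells had just crossed the threshold, since a cell just inside it had 1 UMI and every cell outside it had 0. In control, 192 cells had 1 UMI, 47 had 2, 22 had 3 and 19 had at least 4, with a highest count of 9. In *Trf2T188A*, 225 cells had 1 UMI, 74 had 2, 44 had 3 and 48 had at least 4, with a highest count of 13. Cells with at least 2 UMIs were 31.4% of the *Cdkn2a* cells in control and 42.5% in *Trf2T188A*.

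The share of cells with *Cdkn2a* followed the depth of the cell in both libraries. With the cells of each library split into 4 groups of near equal size, from the fewest UMIs to the most, it was 2.50, 3.30, 5.4 and 11.3% in control and 3.56, 4.61, 7.18 and 13.7% in *Trf2T188A*. As deposited, the share was higher in *Trf2T188A* (7.25%, 6.57 to 7.98) than in control (5.64%, 5.01 to 6.32). When every cell was thinned to 5000 UMIs, which left out 325 control and 154 *Trf2T188A* cells, the shares were 3.43% (2.92 to 3.99) and 3.57% (3.08 to 4.11). The intervals overlapped at equal depth, and thinning drops many of the UMIs, so a difference in the share was not detectable at that depth. The level per 10000 UMIs uses all of them, but it too was higher in deeper cells, from 0.0549 to 0.134 in control and from 0.0688 to 0.159 in *Trf2T188A* between the lowest and highest of the 4 groups.

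The *Cdkn2a* cells were mostly cells of the remodelling and de-differentiated clusters. Clusters were rebuilt without *Cdkn2a* and the listed genes among the variable genes and were named from marker genes, so class shares may differ from the study's own clusters. The remodelling class is led by *Igfbp2*, *Eln* and *Col14a1*, the de-differentiated class is marked by *Lum* and *Dcn*, and the contractile class is marked by *Sparcl1* and *Tcap*. Of the *Cdkn2a* cells in control, 66.1% were in the remodelling class, 28.9% in the de-differentiated class and 3.93% in the contractile class. Among all control cells those classes made up 41.8, 22.3 and 32.1%. In *Trf2T188A* the *Cdkn2a* cells were 63.4% remodelling, 30.9% de-differentiated and 4.35% contractile, against 35.2, 18.7 and 42.7% of all cells.

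**Figure D1:**
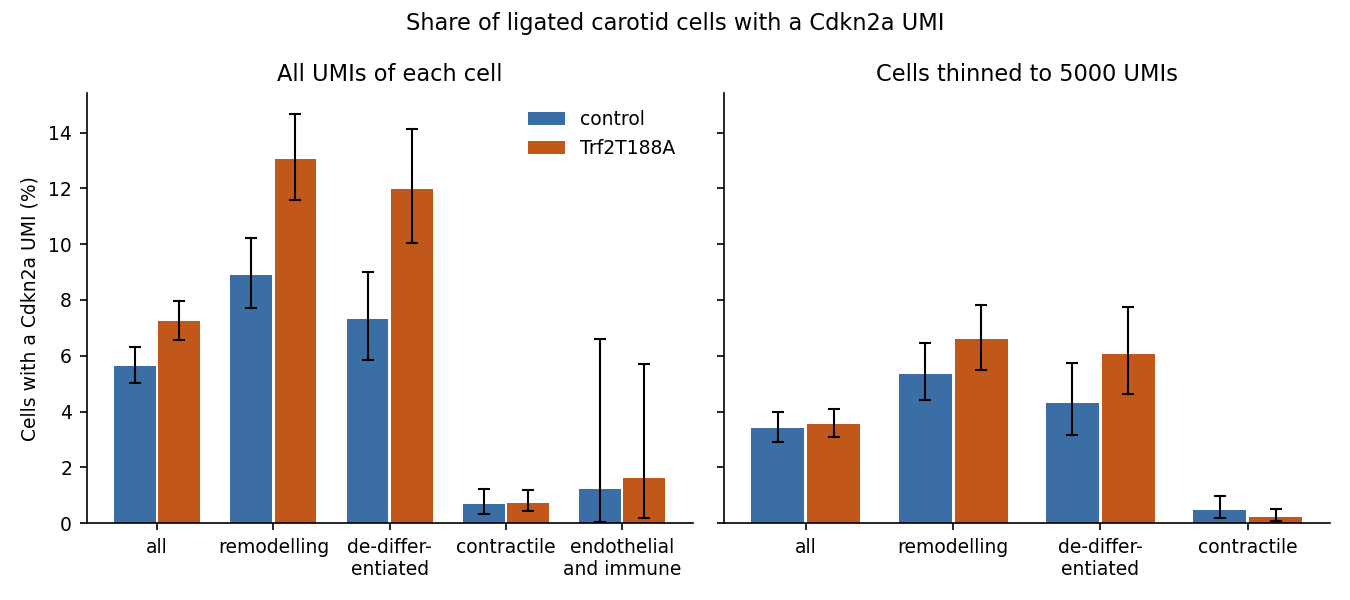
Percent of cells with at least 1 Cdkn2a UMI by class in control and Trf2T188A libraries, as deposited and after thinning to 5000 UMIs per cell; bars are 95% exact binomial intervals covering counting error only. The remodelling class reached 8.91% and 13.1% as deposited and 5.35% and 6.60% at equal depth, and the contractile class stayed under 1% in every case.

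Within the remodelling class, 185 of 2077 control cells (8.91%, 7.72 to 10.2) and 248 of 1898 *Trf2T188A* cells (13.1%, 11.6 to 14.7) had *Cdkn2a*. At 5000 UMIs per cell the shares were 5.35% (4.40 to 6.45) and 6.60% (5.51 to 7.82), with overlapping intervals. The *Cdkn2a* level of the class was 0.155 per 10000 (0.138 to 0.173) in control and 0.214 (0.196 to 0.234) in *Trf2T188A*, and these intervals did not overlap. In the de-differentiated class the shares were 7.30% (5.84 to 9.0) in control and 12% (10.0 to 14.1) in *Trf2T188A*. Thinned, they were 4.31% (3.16 to 5.73) and 6.06% (4.64 to 7.74), and again the intervals overlapped. The levels were 0.117 per 10000 (0.0977 to 0.139) and 0.186 (0.163 to 0.211), with intervals that did not overlap. In both classes the intervals of the level cover counting error only. Across all cells the level was also higher in deeper cells, and the *Trf2T188A* library was deeper. A difference between genotypes was therefore not tested. In the contractile class 11 of 1596 control cells (0.689%, 0.345 to 1.23) and 17 of 2302 *Trf2T188A* cells (0.738%, 0.431 to 1.18) had *Cdkn2a*. Endothelial and immune cells together gave 1 of 82 in control (1.22%, 0.031 to 6.61) and 2 of 124 in *Trf2T188A* (1.61%, 0.196 to 5.71), at median depths of 9580.5 and 10006 UMIs. The contractile share lay below this share, whose intervals are too wide to tell them apart. Whether *Cdkn2a* in the contractile class is expression or background was not tested. No endothelial cell of 65 in *Trf2T188A* had *Cdkn2a*, which at a limit of 3 counts allows a share of up to 4.62% (exact upper bound 5.52%), and none of 20 immune cells in control did, which allows up to 15% (exact upper bound 16.8%).

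Each *Cdkn2a* cell was next set against the 5 *Cdkn2a*-zero cells of its own library that were nearest in detected genes. The median number of genes was 3285 in *Cdkn2a* cells and 3286 in matched cells in control, and 3791 in both in *Trf2T188A*. The *Cdkn2a* cells still held more UMIs, with medians of 11236 against 10316 in control and 14214 against 13322 in *Trf2T188A*, and the part of this in the ratios was not tested. A gene is called higher or lower below when its level, with 0.1 UMIs per 10000 added, differed by at least 0.25 on the log2 scale to the same side in both libraries. This is a rule of size and not a test. The comparison took 8449 genes that at least 10% of *Cdkn2a* or of matched cells carried in each library. Of these, 282 (3.34%) were higher and 506 (5.99%) were lower in *Cdkn2a* cells. A gene could pass this limit through 1 set alone, the set in which it was higher. *Thy1* passed through *Cdkn2a* cells, with 26.4% in control and 27.1% in *Trf2T188A* against at most 8.5% of matched cells. *Kcnma1*, in 2.14% and 5.63% of *Cdkn2a* cells, passed through matched cells. With a limit of 25%, 196 of 5152 genes were higher and 365 lower. Only 15 genes were past this size on opposite sides in the 2 libraries, and the median of all genes was −0.05 in both. When each *Cdkn2a* cell was matched within its own cluster, 185 of 8413 genes (2.2%) were higher and 286 (3.4%) lower. Of the 282 higher genes 150 and of the 506 lower genes 214 remained past this size within cluster, and none was past it on the other side.

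**Figure D2:**
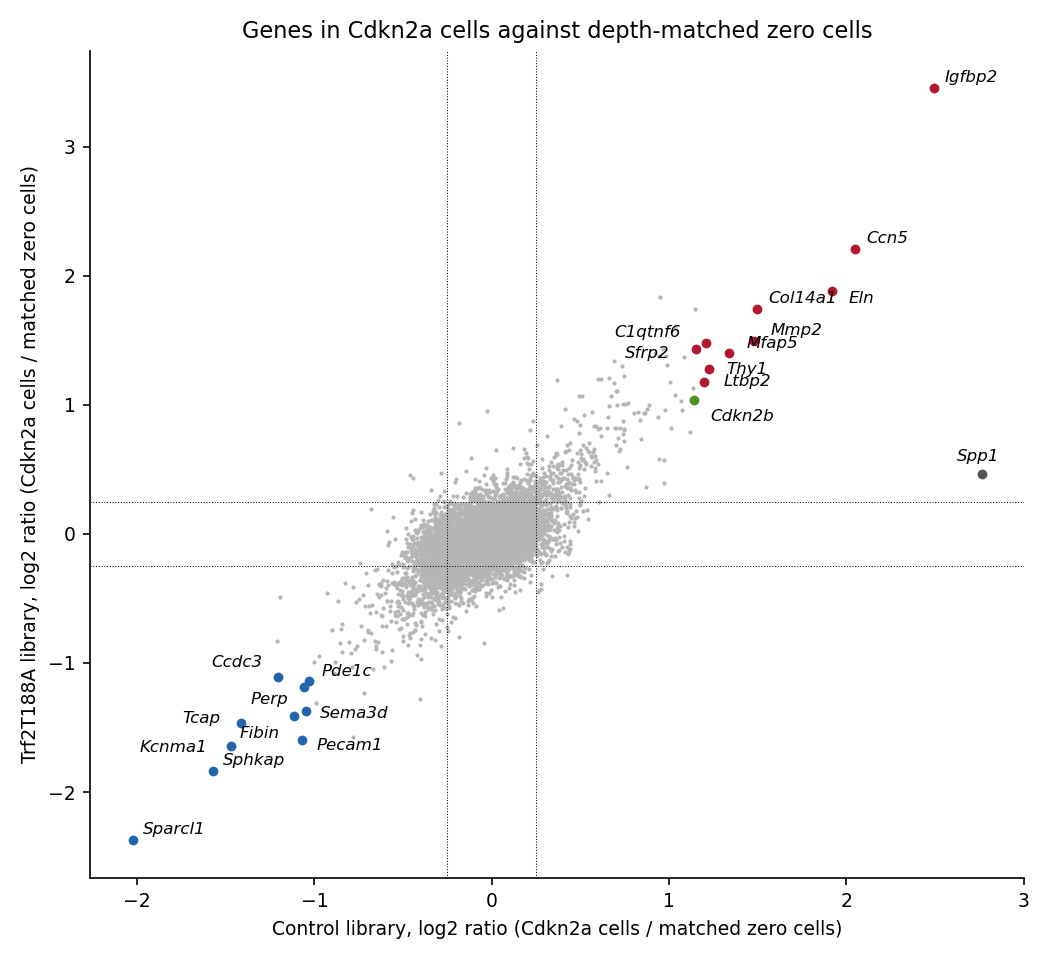
Log2 ratio of each gene's level in Cdkn2a cells over matched Cdkn2a-zero cells in the control library (x axis) and the Trf2T188A library (y axis), 1 point per gene, with a pseudocount of 0.1 UMIs per 10000. Dotted lines mark 0.25 to each side, 15 genes lie past them on opposite sides, and the genes furthest out share their sign, with Igfbp2 at 2.49 and 3.45 at the top and Sparcl1 at −2.02 and −2.37 at the bottom.

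The highest gene in *Cdkn2a* cells was *Igfbp2*, which encodes a secreted insulin-like growth factor binding protein (chr1:72824503-72852474). In control its mean level was 10.2 in *Cdkn2a* cells and 1.74 in matched cells, a log2 ratio of 2.49 (2.42 to 2.57). In *Trf2T188A* it was 22.9 against 2.0, a log2 ratio of 3.45 (3.40 to 3.50). The gene was found in 61.4% of *Cdkn2a* cells against 27.8% of matched cells in control, and in 60.9% against 28.0% in *Trf2T188A*. Its level was uneven, because the median *Cdkn2a* cell held 1.74 in control and 2.03 in *Trf2T188A* while the highest 10% exceeded 30.6 and 81.7. The 5 highest cells gave 18.7% of the sum in control and 16.4% in *Trf2T188A*. Within cluster the log2 ratios were 2.0 and 2.34.

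The elastic fibre genes were higher as a group in *Cdkn2a* cells. Like the other gene lists here, this one was chosen with earlier results of these data known, so its direction is not independent evidence. Of 13 measured members, 10 were higher and none lower, with a median log2 ratio of 0.62 in control and 0.82 in *Trf2T188A* against −0.05 over all genes. *Eln*, also a marker of the remodelling class, encodes elastin, the core protein of the elastic fibre (chr5:134702593-134747323). Its mean was 102 in *Cdkn2a* cells and 27.0 in matched cells in control, a log2 ratio of 1.92 (1.90 to 1.94). In *Trf2T188A* it was 142 against 38.5, a log2 ratio of 1.88 (1.87 to 1.90). The median cell also differed, at 51.0 against 10.8 in control and 90.8 against 17.2 in *Trf2T188A*, although the ranges of single cells overlapped widely. *Mfap5*, a microfibril protein, had log2 ratios of 1.34 in control and 1.40 in *Trf2T188A*, and *Mfap2*, another microfibril protein, had 0.75 and 1.01. *Fbln5*, which tethers elastin to cells and microfibrils, was at 21.3 against 12.7 in control and 23.9 against 13.6 in *Trf2T188A*. The cross-linking enzyme *Lox* was at 6.09 against 3.30 and 7.35 against 3.80. *Loxl1*, a relative of *Lox*, gave log2 ratios of 0.75 and 0.82. The group was not uniform, and *Emilin1* (−0.09 and 0.11), *Ltbp4* (0.02 and −0.16) and *Mfap4* (0.17 and 0.20) stayed under the size used. Within cluster 9 of the 13 were higher and none lower, with medians of 0.52 and 0.45. There *Mfap4* was higher (0.69 and 0.57), while *Efemp1* (0.28 and 0.20) and *Efemp2* (0.26 and 0.21) were no longer past the size in both libraries.

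All 11 interstitial collagens listed were higher in *Cdkn2a* cells, with medians of 0.70 in control and 0.82 in *Trf2T188A*. *Col1a1*, a chain of type I collagen, was at 19.9 against 9.86 in control (log2 ratio 1.0) and 26.6 against 11.7 in *Trf2T188A* (1.18). *Col3a1*, the chain of type III collagen, was at 27.1 against 14.7 and 36.9 against 18.9. *Col14a1*, a collagen that sits on the surface of collagen fibrils, had the largest ratios of this list, 1.5 and 1.74, and it is also a marker of the remodelling class. Within cluster 6 of 11 were higher, with medians of 0.39 and 0.37.

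The fibromyocyte and de-differentiation genes that the study followed overlap both groups, and since the list was taken with results of these libraries known, its direction is not independent evidence. Of 10 measured members, 7 were higher and none lower, with medians of 0.81 and 1.04. *Fn1*, the gene of fibronectin, was at 31.8 against 16.1 in control and 30.2 against 15.5 in *Trf2T188A*. *Lum* and *Fmod* encode small proteoglycans that bind collagen fibrils. The log2 ratios of *Lum* were 0.75 and 1.23 and those of *Fmod* 1.08 and 1.37. *Sfrp4*, a secreted regulator of Wnt signalling, gave 0.70 and 1.11. The 3 members that stayed under the size used were *Dcn* (0.01 and 0.43), *Mgp* (0.19 and 0.21) and *Tnfrsf11b* (0.01 and 0.28). Within cluster the same number, 7 of 10, were higher, with medians of 0.51 and 0.55.

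Other genes among the 10 highest were also mostly genes of secreted proteins. *Ccn5*, a matricellular protein, was at 2.20 against 0.455 in control and 3.94 against 0.778 in *Trf2T188A*, with log2 ratios of 2.05 and 2.20. *Mmp2*, a secreted gelatinase, was at 2.38 against 0.788 and 2.97 against 0.989. *Sfrp2*, another secreted regulator of Wnt signalling, was at 10.3 against 4.60 and 14.6 against 5.36. *Thy1*, a surface glycoprotein common on fibroblasts, was low in all cells, at 0.349 against 0.092 in control and 0.304 against 0.067 in *Trf2T188A*. *Ltbp2*, which binds microfibrils, and *C1qtnf6*, a secreted protein with a collagen-like stretch, completed the 10, with log2 ratios of 1.18 to 1.48. All 10 were also past the size within cluster.

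**Figure D3:**
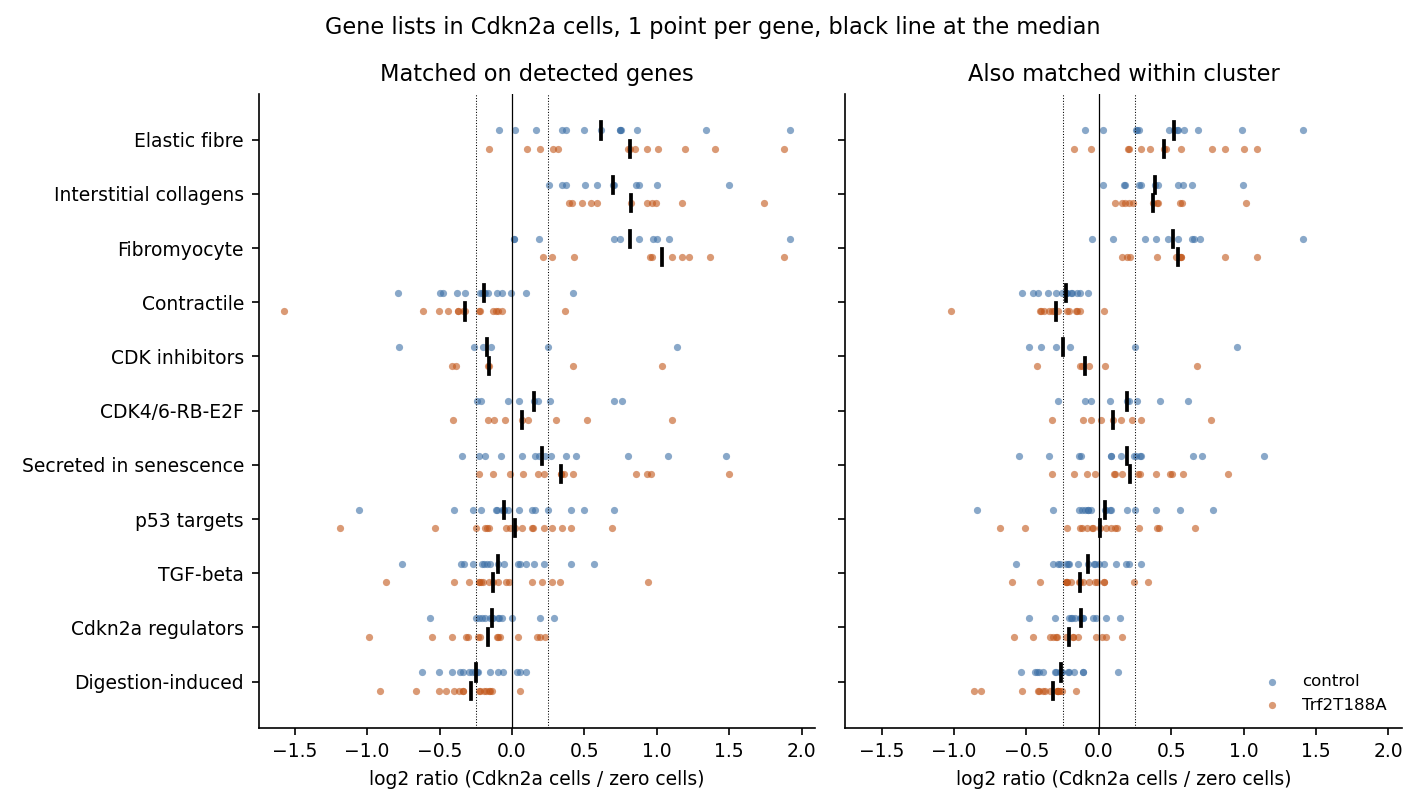
Log2 ratio in Cdkn2a cells over matched zero cells for each measured gene of 11 lists, 1 point per gene and library, with a black line at the median; cells were matched across all clusters (left) or within cluster (right). The medians of elastic fibre genes, interstitial collagens and fibromyocyte genes lie at 0.62 to 1.04 when matched across clusters and at 0.37 to 0.55 within cluster, while those of contractile genes lie at −0.19 to −0.32 in both.

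Contractile genes were lower in part. Of 15 measured, 5 were lower in *Cdkn2a* cells and none higher, with medians of −0.19 in control and −0.32 in *Trf2T188A*. *Myh11*, the smooth muscle myosin heavy chain, was at 26.6 against 34.6 in control (log2 ratio −0.38, −0.41 to −0.34) and 22.6 against 29.3 in *Trf2T188A* (−0.37, −0.40 to −0.35). The other lower members were *Mylk*, the myosin light chain kinase (−0.48 and −0.61), *Synpo2* (−0.50 and −0.50), *Smtn* (−0.33 and −0.44) and *Pln*, the inhibitor of the calcium pump of the sarcoplasmic reticulum (−0.78 and −1.58). *Acta2*, smooth muscle actin, was under the size used, at 152 against 159 in control and 156 against 167 in *Trf2T188A*. *Tagln* (−0.16 and −0.34) and *Cnn1* (−0.10 and −0.07) were under it too. *Acta2* was found in 279 of 280 *Cdkn2a* cells in control and in all 391 in *Trf2T188A*. Within cluster 5 of 14 were lower, with medians of −0.23 and −0.30.

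The lowest gene was *Sparcl1*, a matricellular protein that marks the contractile class (chr5:104079111-104113733). In control it was at 0.915 in *Cdkn2a* cells and 4.03 in matched cells, a log2 ratio of −2.02 (−2.18 to −1.86). In *Trf2T188A* it was at 0.893 against 5.05, a log2 ratio of −2.37 (−2.49 to −2.26). Within cluster the ratios were −1.22 and −1.14. Among the 10 lowest, *Kcnma1*, the large-conductance potassium channel, had −1.47 and −1.64, and *Tcap*, a titin-binding protein, had −1.42 and −1.47. *Sphkap*, an anchoring protein for protein kinase A, had −1.57 and −1.84, and *Pde1c*, a phosphodiesterase, had −1.03 and −1.14. *Fibin*, *Ccdc3*, *Perp* and *Sema3d* had ratios down to −1.41. The tenth, *Pecam1*, is an endothelial gene, and its ratios of −1.07 and −1.60 became −0.11 and 0.11 within cluster, while 8 of the 10 stayed past the size there.

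Of the CDK inhibitors, *Cdkn2b* was the only one of 6 that was higher. In control its level was 0.580 in *Cdkn2a* cells and 0.208 in matched cells, a log2 ratio of 1.14 (0.91 to 1.37). In *Trf2T188A* it was 0.635 against 0.259, a log2 ratio of 1.03 (0.87 to 1.2). The gene was found in 43.6% of *Cdkn2a* cells against 20.4% of matched cells in control and in 53.7% against 29.3% in *Trf2T188A*, and within cluster the log2 ratios were 0.96 and 0.68. *Mtap*, the gene on the other side of *Gm12606* from *Cdkn2a* (chr4:89137122-89181081, plus strand), had log2 ratios of 0.00 and 0.15. *Cdkn1a*, which encodes p21 and is the other inhibitor widely read as a senescence marker, went to different sides, at 3.96 against 3.31 in control (0.25) and 3.02 against 3.38 in *Trf2T188A* (−0.16). *Cdkn1c*, the gene of p57, was lower, with ratios of −0.78 and −0.41 that became −0.48 and −0.07 within cluster, and *Cdkn1b*, the gene of p27, had −0.14 and −0.39.

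Of 9 measured genes of the CDK4 and CDK6, RB and E2F pathway, 2 were higher and none lower. *Ccnd1*, cyclin D1, was at 1.22 against 0.713 in control (log2 ratio 0.70) and 1.36 against 0.578 in *Trf2T188A* (1.11). *Cdk6* was at 0.659 against 0.348 (0.76) and 0.512 against 0.327 (0.52), with 0.62 and 0.23 within cluster. Genes of division itself were rare in these cells, and their side against matched cells differed with the library and the matching. *Mki67*, a marker of dividing cells, was found in 13 of 280 *Cdkn2a* cells in control (4.64%) and in 25 of 391 in *Trf2T188A* (6.39%). Cells matched within cluster had it in 2.71% and 3.73%. The mean of *Mki67* was 0.102 against 0.0907 in cells matched across clusters in control and 0.165 against 0.0364 in *Trf2T188A*. Cells matched within cluster had means of 0.136 in control and 0.0906 in *Trf2T188A*. The 5 highest *Cdkn2a* cells held 80.8% and 66.7% of the sum. *Top2a*, another gene of dividing cells, was at 0.0931 against 0.118 in control and 0.212 against 0.0704 in *Trf2T188A*. Within cluster the matched cells had 0.168 and 0.132. Only 3 of 21 cell cycle genes were carried by enough cells to be compared, and 1 of them, *Mcm6*, was lower, though not within cluster (−0.15 and −0.32). Of 14 measured regulators of *Cdkn2a*, including the Polycomb genes that keep the locus silent, 1 was lower and none higher. Over all genes 5.99% were lower and 3.34% higher, so this count is not read as a trait of the list. The lower regulator was *Id1*, an inhibitor of helix-loop-helix factors, at 5.84 against 8.71 in control (−0.57) and 4.30 against 8.62 in *Trf2T188A* (−0.98). *Bmi1*, a Polycomb gene, had −0.07 and 0.04.

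The secreted genes often read with senescence were split. Of 14 measured, 5 were higher and none lower, with medians of 0.21 and 0.34. They were the gelatinase *Mmp2*, the protease inhibitors *Timp1* (1.08 and 0.96) and *Timp2* (0.27 and 0.34), the chemokine *Cxcl12* (0.80 and 0.94) and *Igfbp7* (0.44 and 0.36). Inflammatory members were found in unequal shares of *Cdkn2a* cells, *Il6* in 2.86% in control and 5.12% in *Trf2T188A*, *Ccl2* in 6.43% and 15.1%, *Icam1* in 26.1% and 31.5% and *Cxcl1* in 28.6% and 46.3%. Such shares depend on depth, which differed between the libraries. Against matched cells *Ccl2* was at 0.157 against 0.155 in control and 0.459 against 0.148 in *Trf2T188A*. *Cxcl1* was at 0.896 against 1.03 and 2.58 against 1.38. *Il6* was at 0.0268 against 0.0163 and 0.0508 against 0.0177, and *Icam1* at 0.338 against 0.363 and 0.424 against 0.348. *Gdf15*, a secreted stress-response cytokine, had 0.16 and −0.01. Of 17 measured p53 targets 2 were higher, *Phlda3* (0.70 and 0.69) and *Bax* (0.50 and 0.41), and 2 were lower, *Perp* (−1.06 and −1.19) and *Sesn1* (−0.27 and −0.53). In the TGF-beta list of 17, *Tgfb2*, a ligand and a marker of the remodelling class, was higher (0.56 and 0.94), and the receptor genes *Tgfbr1* (−0.76 and −0.87) and *Tgfbr3* (−0.27 and −0.29) were lower. Within cluster 4 of these calls fell under the size in 1 or both libraries, *Tgfb2* (0.21 and 0.34), *Tgfbr3* (−0.21 and −0.11), *Sesn1* (−0.12 and −0.51) and *Igfbp7* (0.28 and 0.11). Over all genes 3.34% were higher and 5.99% lower, so the few p53 and TGF-beta calls are not read as traits of those lists. None of 6 interferon and STING genes, 4 BCL2 family genes or 4 genes of the telomere-binding shelterin complex was past the size to the same side in both libraries.

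Cartilage and bone genes gave 2 higher and none lower of 6 measured. *Spp1*, the gene of osteopontin, was at 5.72 against 0.756 in control (2.77) and 1.76 against 1.25 in *Trf2T188A* (0.47). Both values rested on few cells, since the 5 highest held 81.3% of the sum in control and 71.5% in *Trf2T188A*. Without them the means of the *Cdkn2a* cells were 1.09 and 0.510. The highest matched cells were not left out in the same way. How far the count of *Spp1* as higher rests on the 5 highest cells was therefore not tested. *Comp*, a cartilage matrix protein, had 0.87 and 0.36 but 0.72 and −0.03 within cluster, and *Sox9*, the transcription factor of cartilage, had −0.24 and −0.13.

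The levels also followed the number of *Cdkn2a* UMIs in a cell. *Eln* was at 27.0 in control cells with 0 UMIs, 87.3 in those with 1 and 134.8 in those with at least 2, and at 38.5, 128.9 and 160.2 in *Trf2T188A*. *Igfbp2* was at 1.74, 8.22 and 14.7 in control and 2.0, 18.0 and 29.6 in *Trf2T188A*. *Cdkn2b* was at 0.208, 0.446 and 0.873 in control and 0.259, 0.510 and 0.804 in *Trf2T188A*. All of these were higher at each step in both libraries. *Myh11* was lower at each step, at 34.6, 28.9 and 21.7 in control and 29.3, 25.7 and 18.3 in *Trf2T188A*. *Acta2* was at 159, 158 and 140 in control and 167, 171 and 135 in *Trf2T188A*, so a lower level appeared only with at least 2 UMIs. *Cdkn1a* had no such order, at 3.31, 4.0 and 3.86 in control and 3.38, 2.88 and 3.22 in *Trf2T188A*. Cells with at least 2 *Cdkn2a* UMIs were also deeper than those with 1, with medians of 12264 against 10662 UMIs in control and 15557 against 13058 in *Trf2T188A*, and the part of depth in this order was not tested. With only cells of at least 2 UMIs as members, 476 of 8723 genes (5.46%) were higher and 969 (11.1%) lower, and 11 contractile genes were lower in place of 5.

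**Figure D4:**
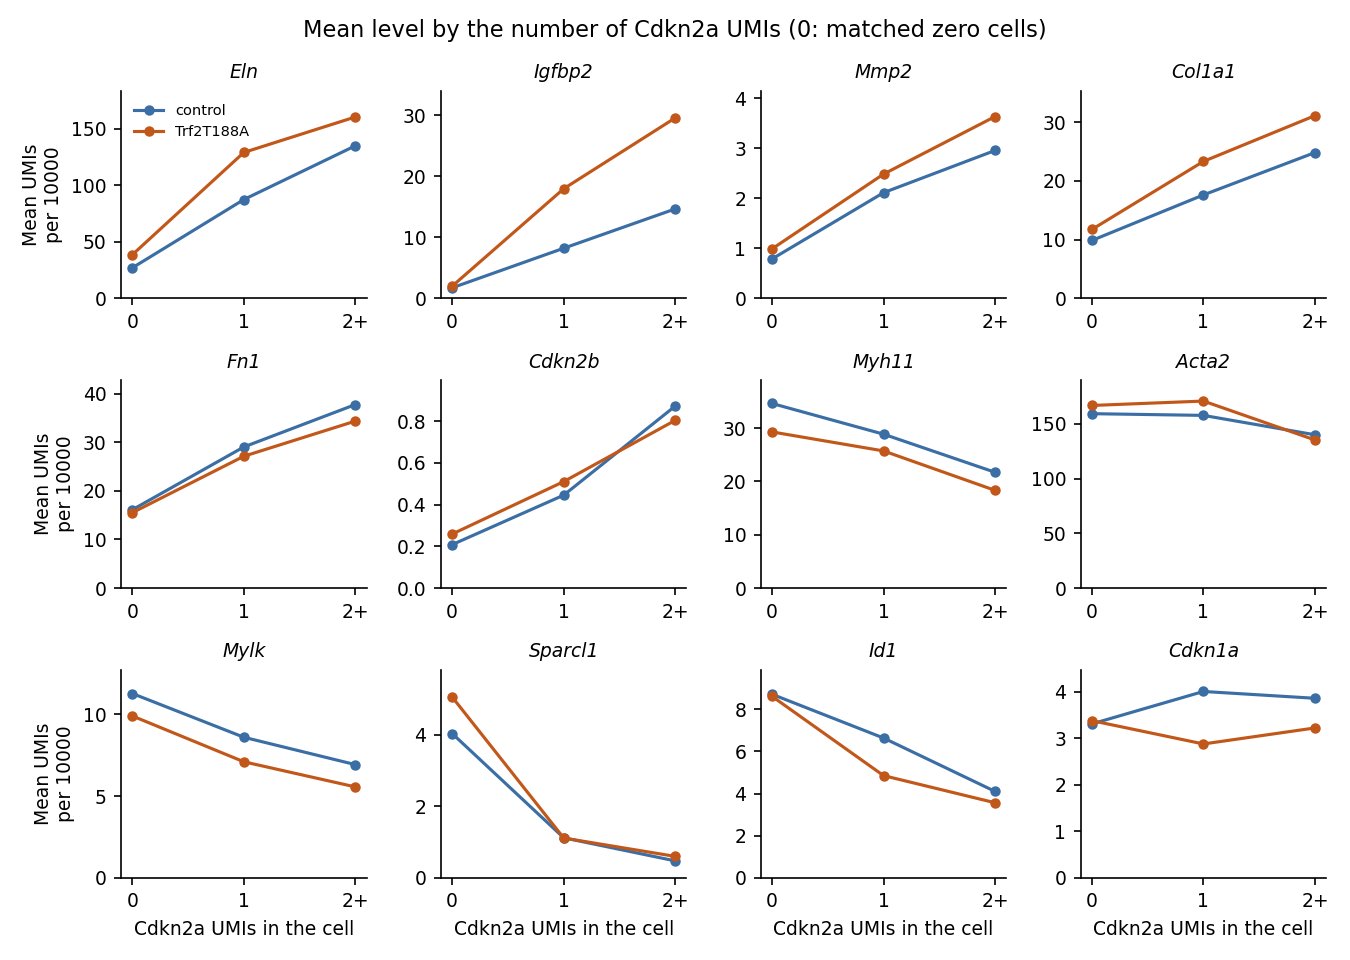
Mean level in UMIs per 10000 of selected genes in matched cells with 0 Cdkn2a UMIs, in cells with 1 and in cells with at least 2, for control and Trf2T188A; each panel has its own scale. Eln, Igfbp2 and Cdkn2b were higher at each step in both libraries and Myh11 and Sparcl1 were lower at each step.

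Inside the classes the pattern was similar in kind. Within the remodelling class 219 of 8335 genes (2.63%) were higher and 402 (4.82%) lower in *Cdkn2a* cells, and 9 of 12 elastic fibre genes and 8 of 11 interstitial collagens were higher. Within the de-differentiated class 292 of 8448 genes (3.46%) were higher and 511 (6.05%) lower, and 7 of 13 elastic fibre genes, 3 collagens and 6 fibromyocyte genes were higher. Contractile genes that were lower numbered 5 in the remodelling class and 7 of 14 in the de-differentiated class. In the contractile class, with 11 and 17 *Cdkn2a* cells, 603 of 7975 genes (7.56%) were higher and 1062 (13.3%) lower, and these few cells set no pattern that can be read.

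Markers of other cell types were checked in the *Cdkn2a* cells. The 5 smooth muscle markers summed to 292 per 10000 in *Cdkn2a* cells against 321 in matched cells in control and 284 against 328 in *Trf2T188A*. The 7 endothelial markers summed to 0.283 against 0.936 in control and 0.109 against 1.28 in *Trf2T188A*, where 2 were at 0. The 7 immune markers summed to 0.0496 against 0.365 in control, where 3 were at 0, and 0.537 against 1.08 in *Trf2T188A*. Single cells weighed on these sums. The highest *Cdkn2a* cell had 50.8 per 10000 of endothelial markers in control and 1.90 in *Trf2T188A*. For immune markers it had 2.97 in control and 161 in *Trf2T188A*. The 5 markers of adventitial fibroblasts, cells that also make collagen and fibrillar matrix, were low but higher in *Cdkn2a* cells, at 0.475 against 0.217 in control and 0.464 against 0.220 in *Trf2T188A*, with 1 of 5 at 0 in each, and their part in the matrix gene ratios was not tested. Genes that respond to tissue digestion were lower, 6 of 16 overall and 10 of 16 within cluster, among them *Nr4a1* (−0.62 and −0.91) and *Atf3* (−0.50 and −0.66), and their part in the other ratios was not tested. Mitochondrial transcripts made up a median of 1.79% of UMIs in both *Cdkn2a* and matched cells in control, and 1.84% against 1.90% in *Trf2T188A*. Without the cells of highest doublet score, which included 12 and 16 *Cdkn2a* cells, 302 genes were higher and 550 lower.

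*Cdkn2a* cells of the *Trf2T188A* library were then set against those of the control library, a comparison of 1 library with 1. Of 8905 genes that at least 10% of *Cdkn2a* cells carried in either library, 889 (9.98%) were higher by at least 0.25 and 858 (9.64%) lower. *Cdkn2b* had a log2 ratio of 0.11 in *Cdkn2a* cells and 0.22 in matched cells. Fibromyocyte genes gave 8 higher and none lower of 10, with a median of 0.46 in *Cdkn2a* cells and 0.31 in matched cells. *Dcn*, a small proteoglycan, had 0.95 in *Cdkn2a* cells and 0.54 in matched cells, *Sfrp4* had 0.88 and 0.48, and *Lum* had 0.81 and 0.33. Elastic fibre genes gave 8 higher and none lower of 13, with medians of 0.39 and 0.11, and *Eln* had 0.48 in *Cdkn2a* cells and 0.51 in matched cells. Contractile genes gave 6 lower and none higher of 15, with medians of −0.17 and −0.11. Whether the ratio between libraries differed between *Cdkn2a* and matched cells was not tested, since each has 1 library per genotype.

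The genes furthest apart between the libraries' *Cdkn2a* cells were of several kinds. *Cxcl1*, a chemokine for neutrophils, was at 0.896 in control and 2.58 in *Trf2T188A*, a log2 ratio of 1.43 against 0.39 in matched cells. *Itih4*, a plasma protease inhibitor, had 1.42 against 0.81. *Tnc*, the matrix glycoprotein tenascin C, was at 0.430 and 1.10, a log2 ratio of 1.18 against 0.63 in matched cells. It was found in 29.3% of *Cdkn2a* cells in control and 64.2% in the deeper *Trf2T188A* library. *Igfbp2* had 1.15 against 0.20 in matched cells. *Cemip*, a hyaluronan-degrading protein, had 1.38 against 0.12, but its 5 highest cells held 67.2% of the sum in control and 47.6% in *Trf2T188A*. The lowest were *Spp1* (−1.64 against 0.66, with the top cells given above), *Tppp3* (−0.95 against −0.08), *Pln* (−0.95 against −0.16), *Iigp1* (−0.92 against −0.80, with 60.9% and 52.2% of its sum in 5 cells) and *Rps4l* (−0.91 against −0.27).

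**Figure D5:**
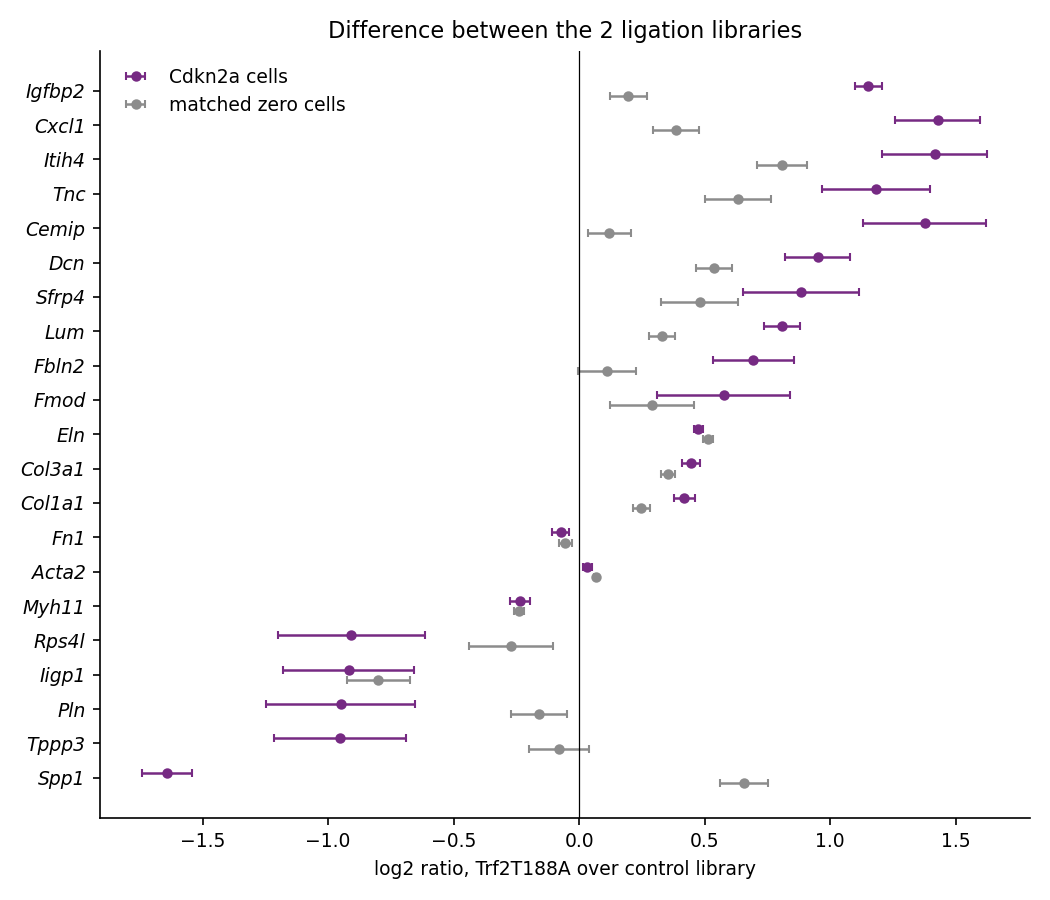
Log2 ratio of Trf2T188A over control in Cdkn2a cells and in matched zero cells for selected genes, with 95% intervals that cover counting error only. Cxcl1 (1.43), Itih4 (1.42) and Cemip (1.38) lie furthest to the right in Cdkn2a cells and Spp1 (−1.64) furthest to the left, while Eln lies at 0.48 and 0.51.

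The nearest other cells of the series are plaque cells with *Cdkn2a*, from mice after 14 weeks of high-fat diet. The mice were Myh11-CreERt2/Confetti/ApoE-/- or Myh11-CreERt2/Confetti/Sm22a-Trf2T188A/ApoE-/-, and had been given tamoxifen to label their smooth muscle cells. In the same order, the *Cdkn2a* cells numbered 49 of 1502 (3.26%) and 56 of 929 (6.03%). In them 854 of 11717 genes (7.29%) were higher and 1420 (12.1%) lower than in matched plaque cells. Interstitial collagens were higher there too, 9 of 11, with medians of 0.98 and 1.05 beside 0.70 and 0.82 in ligated carotids. Contractile genes were lower in 13 of 15, with medians of −1.05 and −1.73 beside −0.19 and −0.32. Elastic fibre genes were 3 higher and 2 lower of 14, and *Eln* had 0.35 and 0.18 beside 1.92 and 1.88. *Cdkn2b* had 1.24 and 0.84 beside 1.14 and 1.03. The plaque cells are those of clusters with the Confetti reporter, which the authors had selected, while the ligation files also hold endothelial and immune cells. The authors' limits on genes and mitochondrial reads differed too. Plaque cells were deeper, with medians of 22765.5 and 24377 UMIs beside 8631 and 11153. The difference between plaque and ligated carotid was not tested.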

How the data were processed

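The deposited values were a signal, UMI counts that the authors had scaled in each cell to 10000 without a log. The submitters' processing notes name Cell Ranger 6.1.2 for alignment and counting and Seurat 3.2.1 under R 3.6.2, and the build was GRCm38. Before deposit the authors removed ligation cells with under 1200 genes, over 6% mitochondrial reads or over 40% of reads in their few top genes. From the step between values, 1 UMI in each cell was recovered (100% of values whole within 0.01), 29459 genes were joined by symbol, and cells were clustered with Seurat 5.3.0 under R 4.3.3 (2000 variable genes less 150 listed genes, 17 principal components, resolution 0.2). Libraries totalled 47713453 control and 67426588 *Trf2T188A* UMIs. Each *Cdkn2a* cell was matched to 5 zero cells by detected genes, and levels were compared as log2 ratios with a pseudocount of 0.1 for genes found in at least 10% of either set of cells in each library. No test across genes was run, since each genotype is 1 library. The ratio calculation was also run on mock members drawn from the zero cells, with UMIs of chosen genes removed at random. Its outcome is not given here. Intervals are exact binomial for shares and from Poisson counts for ratios. Named genes were the 10 highest and 10 lowest, the 4 highest and 4 lowest within cluster, the 5 highest and 5 lowest between genotypes, *Cdkn2b*, *Mtap* and the gene lists. Members and lists were chosen with earlier results of these data known. The alternatives were other matching (on UMIs, within cluster, each zero cell once, or none), thinning to 5000 or 2000 UMIs, a pseudocount of 1, a difference of mean log2, other detection and fold limits, members with at least 2 UMIs, removal of cells of high doublet score (Scrublet in scanpy 1.11.5) or of endothelial and immune clusters, and other resolutions. Other steps used Python 3.11.15 and numpy 2.4.6. Sequences came from RefSeq and GENCODE tables of GRCm38.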

Additional observations from a re-analysis of the deposited data

Results flagged for a closer look

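Of the genes named here, 3 lay on opposite sides past 0.25 in the 2 libraries when *Cdkn2a* cells were set against matched cells, and the difference was not tested. *Cxcl10*, an interferon-induced chemokine, had a log2 ratio of −0.44 in control and 0.43 in *Trf2T188A*, and 0.54 and −0.13 within cluster. *Des*, the gene of desmin, had 0.42 in control and −0.32 in *Trf2T188A*, but 0.11 and 0.08 within cluster. *Lmnb1*, the gene of the nuclear lamina protein lamin B1, had −0.34 in control and 0.34 in *Trf2T188A*, and −0.35 and 0.16 within cluster.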

How the results depend on the processing

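Matched within cluster, some ratios past the size in 1 library changed sign, among them *Pecam1* in *Trf2T188A* (−1.60 to 0.11), *Cxcl10* in control (−0.44 to 0.54) and *Comp* in *Trf2T188A* (0.36 to −0.03). The share of cells with *Cdkn2a* was 3.43% in control and 3.57% in *Trf2T188A* at 5000 UMIs per cell, and 1.37 and 1.71% at 2000. The count of higher and lower genes (282 and 506) was 185 and 286 within cluster, 82 and 86 with a pseudocount of 1, 71 and 81 as a difference of mean log2, 476 and 969 with at least 2 *Cdkn2a* UMIs, and 98 and 78 at a fold of 0.5. The median over both libraries for fibromyocyte genes (0.92) was 0.53 within cluster, 0.57 with a pseudocount of 1 and 0.50 as a difference of mean log2. For interstitial collagens (0.76) it was 0.38, 0.56 and 0.57 in the same order and 0.98 with at least 2 UMIs. For elastic fibre genes (0.72) it was 0.48, 0.45, 0.38 and 0.89, and for contractile genes (−0.26) −0.42 with at least 2 UMIs. At resolution 0.1 the de-differentiated class was not separate, with 0% of *Cdkn2a* cells in both libraries, and the contractile class held 33.2% in control and 35.0% in *Trf2T188A*. Among the named genes, *Sema3d* and *Pde1c* were under the size used with a pseudocount of 1, and *Thy1*, *C1qtnf6*, *Kcnma1*, *Pecam1*, *Sema3d* and *Pde1c*, all of low level, as a difference of mean log2. The cause of these shifts was not tested beyond what each alternative changes by construction. No paired analysis was possible because each group is 1 library. Detection is limited by depth, since most *Cdkn2a* cells had 1 UMI and zero cells may hold the transcript unread.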
